A study of Mus musculus with 61 samples.

Results

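The transcripts described here are 150 mouse maternal messages that were abundant in the ovulated egg and low by 12 to 18 h after insemination. They were chosen from a table of read counts for 24551 genes in 30 libraries of polyadenylated RNA. Counts were turned into CPM (count × 1000000 / library total), the 3338 genes whose MII oocyte mean was 50 CPM or more were kept, and each was scored by log2((12-18hpi mean + 1)/(MII mean + 1)). The 150 genes with the lowest scores are the members, and the other 3188 genes kept are called other maternal genes below. Because the values of MII oocytes and of 12-18hpi embryos chose the members, the change between those 2 groups is described and was not tested.

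The libraries came from wild-type MII oocytes (eggs arrested at metaphase of the second meiotic division) and from wild-type embryos made by in vitro fertilisation. Embryos were collected in 9 windows, 0-6, 6-12, 12-18, 18-24, 24-30, 30-36, 48-54, 70-76 and 90-96 hpi (hours post insemination), with 3 libraries per group. A second experiment at the stage labelled M2C compared libraries labelled Klf17 KO (n = 3), Klf17 maternal KO (mKO, n = 3) and Klf17 paternal KO (pKO, n = 2) with wild-type ctrl embryos (n = 3). Every library, MII and ctrl included, was labelled for 6 h with 2 mM 4SU (4-thiouridine, a uridine analogue that enters newly made RNA). The design gives 10 embryos per library for the windows, while the labels give no number for the genotypes. For the first window, sperm and egg complexes were already in 4SU during insemination. Strain and the position of the Klf17 deletion are not given in the labels.

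A mouse egg is transcriptionally silent and lives on messages stored during its growth. Many of them are removed in steps known as maternal decay and zygotic decay, in which deadenylation by the CCR4-NOT complex with its adaptor BTG4, terminal uridylation by TUT4 and TUT7, and m6A readers such as YTHDF2 take part. Some stored messages, with Mos and Plat as the textbook examples, carry short poly(A) tails until meiotic maturation lengthens them and they are translated. Libraries were primed with oligo-dT, so that loss of a transcript and loss of its poly(A) tail cannot be told apart here. The counts were not parted into old and new RNA, as far as the sources used here state, and in bulk libraries fewer cells that hold an RNA and less of it per cell cannot be told apart either.

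Library totals ran between 7395193 and 13301570 counts in the window experiment and between 14080264 and 23018252 counts in the genotype experiment, and all 150 members passed the filter on low counts in both. The oocyte list (Zp1 to Zp3, Padi6, Nlrp5 and others, 12 genes of which Mos and Gdf9 are members) was detected in full in MII oocytes, with a summed level of 13997 to 15030 CPM. The cumulus and granulosa markers, 23 genes, summed to 82.0 to 106 CPM at 12-18hpi, against 114 to 123 CPM in MII oocytes, where 15 of them were at 0. Of these markers, Cyp19a1 reached 10 CPM in either group and no other did.

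At the level of the rule, the members' scores ran between -5.83 and -1.79 with a median of -2.35, against a median of -0.14 for the other maternal genes. Their mean levels ran between 2.87 and 1013 CPM at 12-18hpi (median 29.8 CPM), against 50.0 and 4369 CPM in MII oocytes (median 170.0 CPM). Every 12-18hpi library lay below every MII library for all 150 members, as the choice of members favours. Mos, the kinase that keeps MAP kinase active and holds the egg at metaphase, had the lowest score, with 14.7, 8.18 and 13.6 CPM at 12-18hpi, against 861, 709 and 672 CPM in MII oocytes. The limit of the set cuts through a continuous ranking: the last gene inside was Trim59 (score -1.79, 116 ± 14.2 CPM at 12-18hpi, against 404 ± 71.7 CPM in MII oocytes, mean ± SD, n = 3), and the first outside was Cstf1 (score -1.79, 28.5 ± 7.04 CPM at 12-18hpi, against 101 ± 1.87 CPM in MII oocytes). Nemf, Gpatch11 and Cdc26 stood just inside and Mlx, Atf6 and Sgo2b just outside, with scores from -1.81 to -1.77 over these 8 genes.

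Together the members took 5.08 ± 0.296% of all counts in MII oocytes (SD, n = 3). Their share was 3.86% at 0-6hpi, 2.01% at 6-12hpi, 0.874% at 12-18hpi and 0.738% at 18-24hpi, its lowest point. It then stood at 1.20% at 24-30hpi, 1.78% at 30-36hpi, 2.01% at 48-54hpi, 1.81% at 70-76hpi and 1.71% at 90-96hpi. The median member kept 71.4% of its MII level at 0-6hpi, 35.1% at 6-12hpi, 18.8% at 12-18hpi and 15.1% at 18-24hpi. Over the same windows the other maternal genes had medians of 98.3%, 92.1%, 90.6% and 89.5%, and reached 28.9% only at 48-54hpi. The fall up to 12-18hpi is fixed by the choice of members, and what the choice left free is its timing and what followed.

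**Figure D1:**
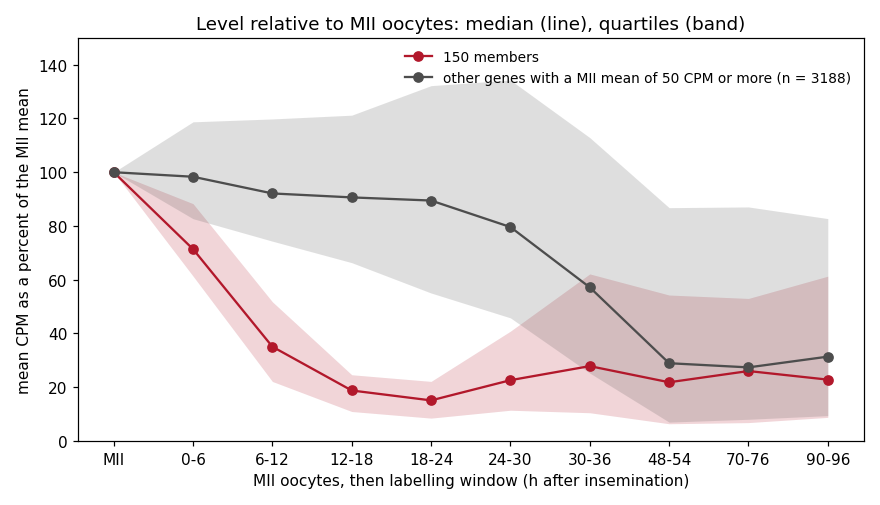
Mean CPM as a percent of the MII mean (vertical axis) in MII oocytes and the 9 windows (horizontal axis, hours after insemination), as median (line) and quartiles (band) over the 150 members (red) and 3188 other maternal genes (grey). The members reach a median of 15.1% at 18-24hpi, where the other maternal genes have 89.5%, and both medians lie between 21.8% and 31.4% in the last 3 windows.

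The steepest step differed between members. On mean CPM, 10 members (6.67%) had their largest fall between MII oocytes and 0-6hpi. Another 78 (52.0%) had it between 0-6hpi and 6-12hpi, and 62 (41.33%) between 6-12hpi and 12-18hpi. Of the other maternal genes 32.72%, 28.73% and 38.55% had their lowest log2 change in these steps, whether or not they fell. With TMM-scaled levels (library totals rescaled by edgeR) the members' counts were 16, 76 and 58. In 15 members the level was under 50% of MII at 0-6hpi, in a further 96 it first was so at 6-12hpi and in 39 at 12-18hpi. These are 10.0%, 64.0% and 26.0% of the members, against 0.38%, 2.98% and 8.94% of the other maternal genes. The choice of members favours this difference. The step out of MII oocytes and the step into 12-18hpi use libraries that chose the members, so no test was made of either.

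The change between 0-6hpi and 6-12hpi uses neither chosen group and was tested across 16234 genes with edgeR's quasi-likelihood test, and a gene was called where its p, adjusted over all genes by Benjamini and Hochberg, was below 0.05. Of the 150 members, 112 were lower at 6-12hpi than at 0-6hpi and 0 were higher (131 had an unadjusted p below 0.05). In the background, 2.93% of all genes tested and 7.28% of the other maternal genes were called lower, and 4.73% and 3.98% higher. The median log2 fold change was -1.07 over the members, -0.07 over the other maternal genes and 0.06 over all genes. A gene that begins high and ends low has to pass through these windows, so the count places the fall in time and is not separate evidence that the members fall.

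Among the members called, the following had some of the lowest fold changes. Efna1, an ephrin ligand of Eph receptors, had 5.59, 3.69 and 4.50 CPM at 6-12hpi, against 21.6, 28.6 and 39.2 CPM at 0-6hpi (a log2 change of -2.72 with an SE of 0.27, adjusted p = 5.3e-09), and had already stood at 103 ± 15.9 CPM in MII oocytes. Il1rap, the accessory chain of the interleukin-1 receptor, had 5.03, 4.38 and 6.85 CPM, against 29.5, 28.6 and 35.9 CPM (a log2 change of -2.56 with an SE of 0.41, adjusted p = 3.7e-05). In both genes every 6-12hpi library lay below every 0-6hpi library, which was a condition for naming them. It held for all 112 members called lower.

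Med20, a subunit of the Mediator complex that links transcription factors to RNA polymerase II, had 13.7, 19.1 and 17.8 CPM at 6-12hpi, against 89.7, 106 and 102 CPM at 0-6hpi (a log2 change of -2.59 with an SE of 0.18, adjusted p = 1.7e-12). Saraf, a membrane protein that damps store-operated calcium entry, had 39.9, 39.9 and 41.5 CPM, against 234, 211 and 227 CPM (a log2 change of -2.49 with an SE of 0.17, adjusted p = 5.4e-13). Both kept the groups apart, as their naming required. Astl encodes ovastacin, the cortical granule protease that cleaves ZP2 after fertilisation, and had 18.7, 18.7 and 30.6 CPM at 6-12hpi, against 149.5, 109 and 152 CPM at 0-6hpi (a log2 change of -2.62 with an SE of 0.34, adjusted p = 6.3e-06). Plat, tissue plasminogen activator, and Mos also fell in this step, by 2.41 (SE 0.32) and 2.20 (SE 0.39) on the log2 scale (adjusted p = 1.5e-05 and 0.00052).

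The 10 members whose largest fall came earliest were Nfkbiz, Leprot, Slc35b3, Fam8a1, Mrps36, Tshz1, Snx18, Sall4, Erp44 and Cdc26, a group named after its values were seen. Nfkbiz, an inducible nuclear inhibitor of NF-kappaB, had 10.4, 10.3 and 11.1 CPM at 0-6hpi, against 83.0, 75.5 and 72.5 CPM in MII oocytes. Sall4, a zinc finger transcription factor of oocytes and pluripotent cells, had 337, 264 and 316 CPM at 0-6hpi, against 617, 552 and 498 CPM in MII oocytes. Neither gene's libraries overlapped between the groups, and neither was tested. Every 0-6hpi library lay below every MII library in 100 of the 150 members, and MII values chose the members.

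**Figure D2:**
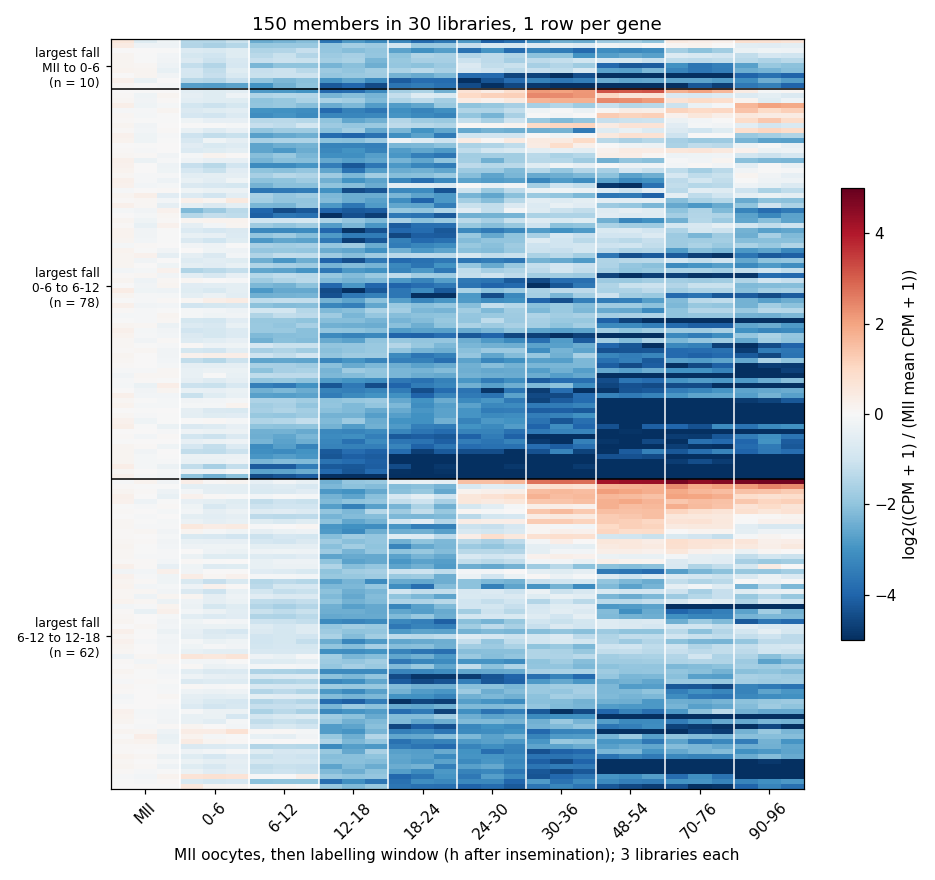
log2((CPM + 1)/(MII mean CPM + 1)) of the 150 members (rows) in 30 libraries (columns, 3 per group in time order), grouped by the step of the largest fall (10, 78 and 62 genes) and, within a group, sorted by the highest later level as a percent of MII. Blue is below and red above the MII mean, and the colours are cut at -5 and 5; the replicates of a window look alike, and red appears in the upper rows of each group after 18-24hpi.

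The later step was tested between 18-24hpi and 6-12hpi, which leaves out the 12-18hpi libraries. Of the 150 members, 118 were lower at 18-24hpi and 5 higher, where 17.6% of all genes and 36.4% of the other maternal genes were called lower and 25.2% and 22.2% higher. The median log2 fold change was -1.28 over the members, -0.11 over the other maternal genes and 0.13 over all genes. The members were chosen as low at 12-18hpi, which lies between the windows compared, so the choice itself favours lower calls at 18-24hpi. The count of lower members places the later fall in time and is not separate evidence that the members fall. The 5 members already higher at 18-24hpi, all given here outside the naming rules, were Efna1, Pttg1ip, Tor1aip1, Neo1 and Ppp1r15a.

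Dnmt1, the maintenance DNA methyltransferase, kept its MII level up to 6-12hpi when scaled by library totals. It had 57.4, 52.4 and 50.7 CPM at 18-24hpi, against 743, 749 and 689 CPM at 6-12hpi (a log2 change of -3.81 with an SE of 0.17, adjusted p = 5.5e-19), with 705 ± 9.77 CPM in MII oocytes. Snrnp70, a protein of the U1 snRNP, had 8.31, 10.8 and 11.2 CPM, against 121, 124 and 121 CPM (a log2 change of -3.63 with an SE of 0.28, adjusted p = 3.2e-13). Tdrd5, a tudor domain protein of germ cells, had 7.27, 9.15 and 15.3 CPM, against 126, 126 and 151 CPM (a log2 change of -3.70 with an SE of 0.26, adjusted p = 4.2e-14). Scaled by library totals, these 3 genes stood at or above their MII means at 6-12hpi, and on that scale their fall lay after that window. TMM factors were 0.784 to 0.831 in MII oocytes and 0.904 to 0.931 at 6-12hpi. TMM scaling therefore lowers the 6-12hpi levels relative to MII.

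Bub1b, the BubR1 kinase of the spindle checkpoint, fell through both steps. Its libraries had 36.7, 27.4 and 32.8 CPM at 18-24hpi, against 387, 415 and 405 CPM at 6-12hpi (a log2 change of -3.69 with an SE of 0.13, adjusted p = 1.5e-21), after a mean of 1881 ± 146 CPM in MII oocytes and a 0-6hpi mean of 1505 ± 64.8 CPM. Nfrkb, a subunit of the INO80 chromatin remodeller, had 13.4, 19.1 and 15.5 CPM, against 175, 198 and 176 CPM (a log2 change of -3.56 with an SE of 0.19, adjusted p = 5.7e-17). Rp9 had 5.54, 7.27 and 6.79 CPM, against 71.7, 79.8 and 71.7 CPM (a log2 change of -3.55 with an SE of 0.19, adjusted p = 2.5e-17). No library of one window reached the range of the other in these 3 genes, as their naming required. The same held for 114 of the 118 members called lower.

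By function, the members were spread over many roles. The gene lists used are not exhaustive: 45 of the 150 were in at least 1 of them and 105 in none, and the share of members among all genes with 50 CPM or more in MII oocytes was 4.49%. Of the 31 listed genes of the cytoplasmic mRNA decay machinery with such a level, 3 were members, Upf1 (the helicase of nonsense-mediated decay), Dcp1a (a decapping cofactor) and Lsm14b (an oocyte protein of stored messenger RNPs). The nonsense-mediated decay factors Smg6 and Smg8, named here after their values were seen, were members outside the list. Over the whole list, members included, 4 of 51 tested genes were called lower and 0 higher at 6-12hpi than at 0-6hpi, and the list's median log2 fold change was -0.04. In this comparison 2.93% of all genes tested were called lower and 4.73% higher. Dcp1a had 302 ± 21.7 CPM at 6-12hpi, against 839 ± 23.5 CPM at 0-6hpi (a log2 change of -1.50 with an SE of 0.19, adjusted p = 8.4e-07).

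Of the genes of meiotic arrest and egg activation, 3 of 33 were members: Mos, Bub1b and Spire1, an actin nucleator needed for the asymmetric division of the oocyte. Spire1 had 343, 329.8 and 338 CPM at 6-12hpi, against 646, 824 and 643 CPM at 0-6hpi (a log2 change of -1.09 with an SE of 0.16, adjusted p = 9.6e-06). Of the list's 51 tested genes, 7 were lower and 3 higher in this comparison, where the shares of all genes were 2.93% and 4.73%. Of egg coat, cortical granule and egg surface genes, 2 of 16 were members, Astl and Gdf9, an oocyte growth factor that acts on granulosa cells, and 7 of 25 tested genes were lower and 1 higher. Gdf9 had 1098, 1071 and 1179 CPM at 6-12hpi, against 2889, 2715 and 2803 CPM at 0-6hpi (a log2 change of -1.35 with an SE of 0.38, adjusted p = 0.0324), after 4096 ± 233 CPM in MII oocytes.

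The listed ligands and receptors gave 4 members of 12 genes, Efna1, Gdf9, Jag1 (a Notch ligand) and Fgfr2 (a receptor of fibroblast growth factors), and 6 of 55 tested genes of the list were lower and 1 higher at 6-12hpi than at 0-6hpi. Of the RNA polymerase II, Mediator and Integrator genes, 4 of 56 were members (Med20, Med11, Ints6 and Ints9), and 9 of 112 tested genes were lower and 7 higher. Beside both lists, 2.93% of all genes tested were lower and 4.73% higher. Solute carriers gave 6 members of 39 and ubiquitin ligases and conjugating enzymes 5 of 113. No member came from the listed 21 nuclear pore, 21 proteasome, 19 kinesin and tubulin or 10 aminoacyl-tRNA synthetase genes, or from the 62 genes with Zfp or Zscan names, that passed the MII minimum. Counts this small describe the set, and no list was tested for enrichment.

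After 12-18hpi the members parted. Taking the highest mean in any window from 18-24hpi on, 33 members reached at least 100% of their MII level, 38 reached 50% to 100%, 67 reached 10% to 50% and 12 stayed under 10%. Of the other maternal genes, of which 87.7% were at no time under 50% of MII up to 12-18hpi, 61.95%, 27.92% and 10.13% were in the first 3 of these classes and none in the last. On TMM-scaled levels 54 members, in place of 71, reached 50% or more. That highest window was 18-24hpi in 16 members, 24-30hpi in 14, 30-36hpi in 35, 48-54hpi in 26, 70-76hpi in 23 and 90-96hpi in 36. In this order these are 10.67%, 9.33%, 23.33%, 17.33%, 15.33% and 24.0% of the members. Among the other maternal genes the shares were 42.79%, 17.5%, 12.99%, 8.97%, 7.28% and 10.48%. Of the 78 members that fell most between 0-6hpi and 6-12hpi, 14 came back to the MII level and 10 stayed under 10%, and of the 62 that fell most between 6-12hpi and 12-18hpi, 17 came back and 1 stayed under 10%.

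Each later window was tested against 18-24hpi, so that these comparisons share their 18-24hpi libraries. At 24-30hpi 55 members were higher and 25 lower (21% of all genes and 10.5% of the other maternal genes were called higher). At 30-36hpi 70 were higher and 45 lower, with 29.4% of all genes and 18.5% of the other maternal genes higher. At 48-54hpi 77 were higher and 43 lower (34.2% and 23.5% higher), at 70-76hpi 77 and 45 (35.5% and 19.1%), and at 90-96hpi 76 and 43 (36.1% and 17.9%). In the 5 windows in this order 16.7%, 30%, 28.7%, 30% and 28.7% of the members were called lower. The shares were 57.3%, 67.8%, 67.5%, 71.2% and 72.9% of the other maternal genes and 24.4%, 38.9%, 43.3%, 43.2% and 42.4% of all genes. The members entered these comparisons at a median of 15.1% of MII and the other maternal genes at 89.5%, and the median log2 fold change was 0.09 over the members and -0.53 over the other maternal genes at 24-30hpi, and 0.54 and -1.71 at 90-96hpi.

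The early part of this return depends on how libraries are scaled: TMM factors were 1.22 to 1.33 at 24-30hpi and 30-36hpi and 0.905 to 0.977 at 18-24hpi. Scaled by total counts, 80 members were higher and 12 lower at 24-30hpi, and 88 higher and 25 lower at 30-36hpi. The share of higher calls over all genes moved in the same way: it was 46.3% with TMM and 69.0% with total counts at 24-30hpi, and 43.1% and 53.3% at 30-36hpi. The median log2 fold change of all genes at 24-30hpi was -0.12 with TMM and 0.28 with total counts, and the members' median was 0.09 and 0.50.

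Over the 5 later windows, 105 members (70.0%) were higher than at 18-24hpi in at least 1 window, 38 of them in all 5. Another 42 (28.0%) were lower in at least 1 window and higher in none, and 3 were called in neither direction. Of the other maternal genes, 31.7% were higher in at least 1 window and 68.0% were lower and never higher. All 33 members that reached their MII level were among those called higher, which their median of 21.7% of MII at 18-24hpi favours.

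**Figure D3:**
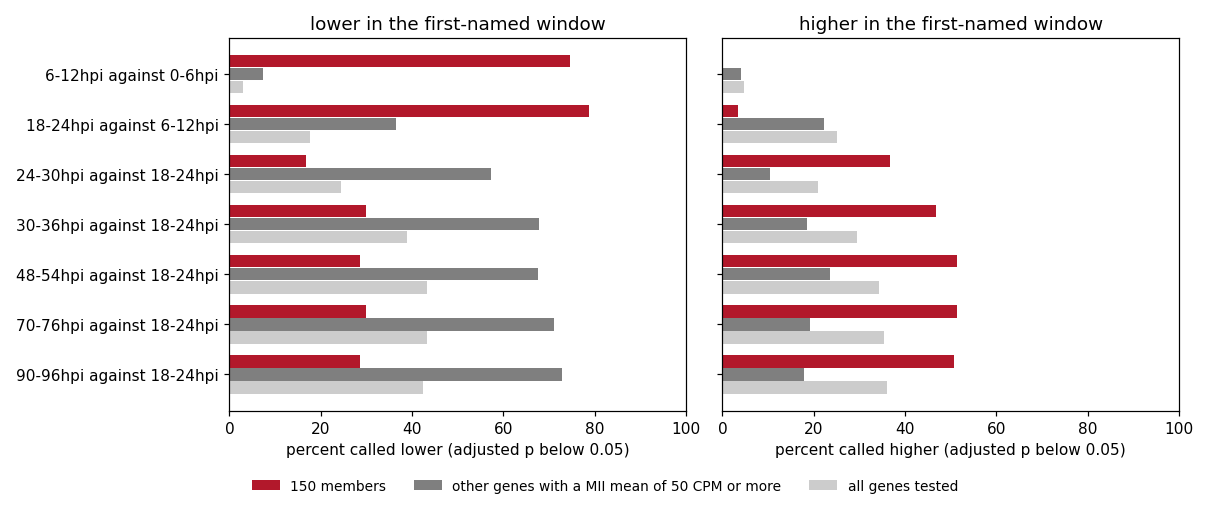
Percent of genes called lower (left panel) and higher (right panel) at an adjusted p below 0.05 in the first-named window of each comparison (rows), for the 150 members (red), the other maternal genes (dark grey) and all genes tested (light grey). Members lead the lower calls in the first 2 comparisons (112 and 118 of 150) and the higher calls in the 5 comparisons with 18-24hpi (55 to 77 of 150).

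Among the members with the highest return relative to the egg were Rpl13 (2825% of MII), Pttg1ip (874%), Tor1aip1 (512%), Tor2a (498%) and Eif3c (389.8%). Rpl13, a protein of the large ribosomal subunit, had 2337, 2511 and 2493 CPM at 90-96hpi, against 64.2, 67.8 and 62.9 CPM at 18-24hpi (a log2 change of 4.94 with an SE of 0.15, adjusted p = 1.9e-25). Its mean was higher in each later window than in the one before it. Ribosomal protein genes have near-identical processed pseudogenes, and how reads with several matches were counted is not given in the sources used here, so that its level is uncertain.

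Other members returned as a wave with a peak at 30-36hpi or 48-54hpi. Pttg1ip, which binds the securin PTTG1, had 1562, 1467 and 1567 CPM at 48-54hpi, against 53.7, 58.1 and 32.4 CPM at 18-24hpi (a log2 change of 5.04 with an SE of 0.19, adjusted p = 8.3e-23), and had come down to 194 ± 33.3 CPM at 90-96hpi. Tor1aip1, an inner nuclear membrane protein that activates torsins, and the torsin ATPase Tor2a had their highest means at 30-36hpi (302 ± 24.4 CPM) and 48-54hpi (295 ± 28.4 CPM). Their 18-24hpi means were 32.5 ± 6.26 CPM and 20.5 ± 2.86 CPM. In MII oocytes their means were 59.0 ± 7.84 CPM for Tor1aip1 and 59.2 ± 5.59 CPM for Tor2a.

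Eif3c, a subunit of the translation initiation factor eIF3, had 470.1, 499 and 471 CPM at 30-36hpi, against 36.7, 42.9 and 26.1 CPM at 18-24hpi (a log2 change of 3.34 with an SE of 0.16, adjusted p = 2.5e-19), and the windows did not overlap, as its naming required. Its mean at 30-36hpi was 299% of that in MII oocytes, and its highest was at 48-54hpi.

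Cers2, a ceramide synthase, had 269.6, 239 and 253 CPM at 48-54hpi, against 13.4, 11.3 and 10.2 CPM at 18-24hpi (a log2 change of 4.49 with an SE of 0.17, adjusted p = 7.3e-23). Taldo1, transaldolase of the pentose phosphate pathway, had 723, 527 and 610.0 CPM at 90-96hpi, against 31.2, 26.6 and 31.0 CPM at 18-24hpi (a log2 change of 4.11 with an SE of 0.16, adjusted p = 1.8e-22). In both genes every library of the later window lay above every 18-24hpi library, as their naming required. The same held for 76 of the 77 members called higher at 48-54hpi and for all 76 at 90-96hpi. Leprot, an endosomal membrane protein whose gene overlaps that of the leptin receptor, so that reads may be shared, had 155, 152 and 141 CPM at 90-96hpi, against 8.77, 5.18 and 6.67 CPM (a log2 change of 4.15 with an SE of 0.29, adjusted p = 4.2e-15). Cdh1, the E-cadherin that joins blastomeres at compaction, had 408, 544 and 402 CPM at 90-96hpi, against 77.7, 62.5 and 58.6 CPM (a log2 change of 2.48 with an SE of 0.15, adjusted p = 3.2e-17), and was picked after its values were seen. These 4 had their highest means at 48-54hpi (Cers2) or 90-96hpi (the other 3).

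Ribosome biogenesis factors were among the members that returned. Of 50 such genes with 50 CPM or more in MII oocytes, 6 were members (Gnl2, Rbm28, Lyar, Nop14, Nop58 and Ncl), and all 6 later reached at least their MII level. Gnl2, a nucleolar GTPase of large-subunit assembly, had 420.5, 475 and 449.5 CPM at 48-54hpi, against 27.2, 18.7 and 19.3 CPM at 18-24hpi (a log2 change of 4.41 with an SE of 0.14, adjusted p = 1.4e-24), with 209 ± 12.7 CPM in MII oocytes. Nop58, a core protein of box C/D snoRNPs, had 602, 607 and 536 CPM at 30-36hpi, against 132, 169 and 89.5 CPM at 18-24hpi (a log2 change of 1.73 with an SE of 0.14, adjusted p = 3.1e-13). Ncl, nucleolin, had 1470.5, 1467 and 1422 CPM at 48-54hpi, against 298, 322 and 267 CPM (a log2 change of 2.34 with an SE of 0.13, adjusted p = 6e-18). In the whole list of 125 tested genes, 60 were lower and 35 higher at 18-24hpi than at 6-12hpi, and 117 were higher and 4 lower at 48-54hpi than at 18-24hpi. The shares of all genes tested were 17.6% lower and 25.2% higher in the first comparison and 34.2% higher and 43.3% lower in the second.

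The members with the smallest return were Mos (0.946% of MII), Plat (3.00%), Astl (3.13%), Bub1b (3.96%), Gm1070 (4.73%) and Zdhhc24 (6.76%). Others under 10% were Nfkbiz, Dnmt1 and, named after their values were seen, Dse, Ern1 and Tpra1. Mos had a mean of 7.07 ± 4.80 CPM at 18-24hpi, 3.54 ± 1.05 CPM at 24-30hpi and 2.97 ± 1.49 CPM at 30-36hpi. Plat had 19.5, 7.02 and 27.0 CPM at 30-36hpi, against 57.2, 44.8 and 58.7 CPM at 18-24hpi (a log2 change of -2.05 with an SE of 0.34, adjusted p = 1.5e-05) and 1903, 1791 and 1672 CPM in MII oocytes. Mos was also lower at 30-36hpi than at 18-24hpi (a log2 change of -1.71 with an SE of 0.56, adjusted p = 0.0101), and no later window exceeded 18-24hpi in mean level in either gene. Bub1b rose later: at 70-76hpi it had 69.3, 85.9 and 68.4 CPM, against 36.7, 27.4 and 32.8 CPM at 18-24hpi (a log2 change of 1.02 with an SE of 0.12, adjusted p = 2.2e-09), a rise that still left it at 3.96% of its MII level. Dnmt1 had 56.0, 72.0 and 57.2 CPM at 30-36hpi, which is 8.76% of MII and its highest later mean.

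Between these ends stood members whose level declined over several windows. Rdx, the ERM protein radixin, was picked after its values were seen. Its means were 4369 CPM in MII oocytes, 2342 CPM at 6-12hpi, 667 CPM at 18-24hpi and 50.3 CPM at 48-54hpi. Gdf9 kept 430.2 CPM at 30-36hpi and 26.3 CPM at 48-54hpi. Spire1 stood at 13.6 ± 0.879 CPM at 48-54hpi, against 153 ± 16.7 CPM at 18-24hpi (a log2 change of -3.44 with an SE of 0.19, adjusted p = 1.9e-18), and Jag1 at 2.41 ± 0.763 CPM, against 89.7 ± 12.7 CPM (a log2 change of -5.15 with an SE of 0.28, adjusted p = 1e-17). In all 4 the mean at 48-54hpi was under 50% of that at 30-36hpi.

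**Figure D4:**
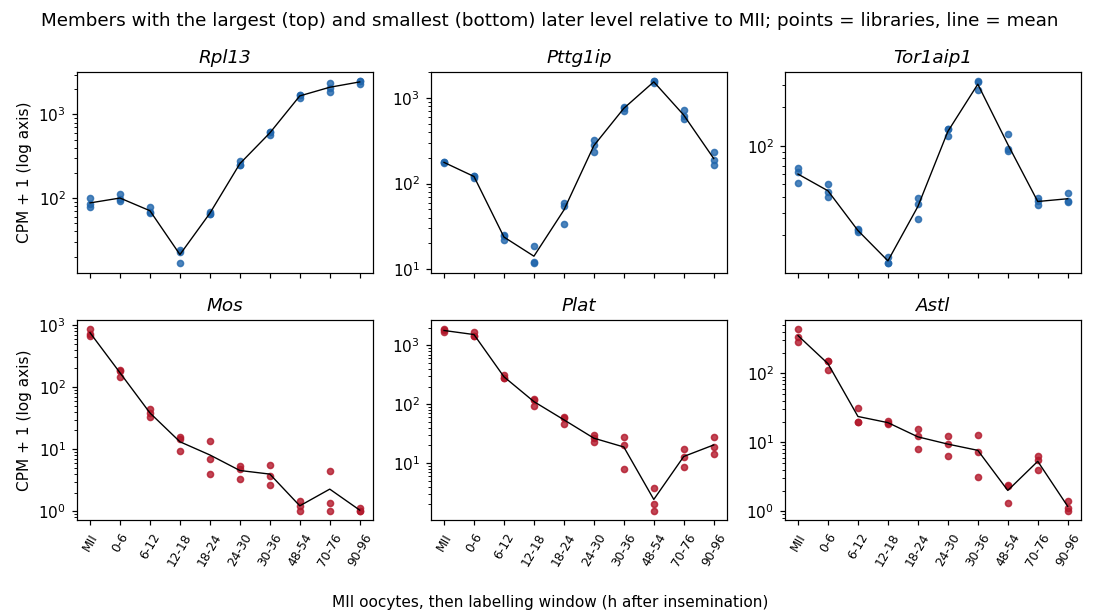
CPM + 1 on a log axis by library (points) and as the mean (line) in MII oocytes and the 9 windows, for the 3 members with the largest (top row) and the 3 with the smallest later level relative to MII (bottom row). All 6 are lower at 12-18hpi than in MII oocytes; Rpl13 then climbs to 90-96hpi, Pttg1ip and Tor1aip1 peak at 48-54hpi and 30-36hpi, and Mos, Plat and Astl stay under 4% of MII.

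RefSeq promoter sequences of the GRCm38.p6 assembly were found for 114 of the 150 members, and the 250 bases before each annotated start were read. The members had a median of 19.5 CG dinucleotides in this window, the other maternal genes 18 and all promoters given 6. Among members, the median was 18.5 in those that later reached their MII level (n = 28) and 20.0 in those at 50% to 100% (n = 28). It was 21.0 in those at 10% to 50% (n = 50) and 11.5 in those that stayed under 10% (n = 8). The median thus did not rise steadily with the return. The letters TATAAA, on either strand, were in 2 of the 114 promoters (1.75%), 5.27% of those of other maternal genes and 12.97% of all promoters; CCAAT was in 37.72%, 37.93% and 34.46%, GGGCGG in 62.28%, 62.5% and 32.94%, and CACGTG in 8.77%, 8.97% and 6.05%. These shares were not tested, and a match of letters is not a bound site.

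The 250 bases before the start are shown, 5′ to 3′, for the 2 members with the largest return, Rpl13 (chr8:123102100-123102349, plus strand, 17 CG) and Pttg1ip (chr10:77581405-77581654, plus strand, 13 CG), and for 2 of those with the smallest, Astl (chr2:127338389-127338638, plus strand, 4 CG) and Bub1b (chr2:118597961-118598210, plus strand, 9 CG); CG dinucleotides are in capitals.
Rpl13: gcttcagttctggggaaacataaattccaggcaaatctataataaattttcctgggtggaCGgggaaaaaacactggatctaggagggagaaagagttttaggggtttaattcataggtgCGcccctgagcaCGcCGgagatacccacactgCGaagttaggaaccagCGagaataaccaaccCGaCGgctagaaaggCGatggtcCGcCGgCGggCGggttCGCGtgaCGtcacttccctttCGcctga
Pttg1ip: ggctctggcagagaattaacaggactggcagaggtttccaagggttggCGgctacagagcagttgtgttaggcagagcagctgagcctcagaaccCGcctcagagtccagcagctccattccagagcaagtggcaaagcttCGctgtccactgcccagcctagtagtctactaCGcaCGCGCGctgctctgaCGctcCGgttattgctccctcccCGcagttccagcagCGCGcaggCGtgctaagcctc
Astl: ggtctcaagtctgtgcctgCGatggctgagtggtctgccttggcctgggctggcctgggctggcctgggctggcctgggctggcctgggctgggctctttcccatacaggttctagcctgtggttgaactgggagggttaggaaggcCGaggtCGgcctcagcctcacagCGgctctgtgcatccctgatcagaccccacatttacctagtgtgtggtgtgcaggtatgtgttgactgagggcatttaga
Bub1b: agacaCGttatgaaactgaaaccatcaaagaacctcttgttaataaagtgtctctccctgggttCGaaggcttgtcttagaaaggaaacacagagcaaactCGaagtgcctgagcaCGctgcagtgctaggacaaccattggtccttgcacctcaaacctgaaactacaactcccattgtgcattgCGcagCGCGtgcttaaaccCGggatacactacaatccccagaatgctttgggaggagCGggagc

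The genotype experiment gave a second look at the members, in embryos of the M2C stage whose libraries played no part in the choice. Klf17, a Krüppel-like zinc finger transcription factor and the gene named in the labels, had 630, 585 and 814 CPM in the libraries labelled KO, 342, 853 and 914 CPM in mKO, 723 and 1003 CPM in pKO, and 586, 815 and 753 CPM in ctrl. The groups overlapped, so that the transcript level does not set the libraries labelled KO apart, and directions below are those of the labels. The members took 0.999 ± 0.142% of counts in the libraries labelled KO, 1.20 ± 0.177% in mKO and 1.42 ± 0.178% in pKO, and 1.38 ± 0.135% in ctrl (SD, n = 3, 3, 2 and 3). The comparisons share the ctrl libraries.

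Between the libraries labelled KO and ctrl, 22 members were lower and 4 higher, where 6.31% of all 16694 genes tested and 6.81% of the other maternal genes were lower and 1.82% and 3.01% were higher. The median log2 fold change was -0.22 over the members, 0.13 over the other maternal genes and 0.05 over all genes. With DESeq2's size factors 14 members were lower, and DESeq2's own test called 35 members (23.3%) and 14.8% of all genes in either direction, against 17.3% and 8.13% with edgeR. Leaving out any 1 of the 6 libraries left 0 to 14 members lower: 3, 0 and 7 without KO replicates 1, 2 and 3, and 14, 3 and 3 without ctrl replicates 1, 2 and 3. Against ctrl, 0 members were called by edgeR in mKO or pKO, with 13 and 1 at an unadjusted p below 0.05, and DESeq2 also called 0 members in both. Across all genes edgeR called 0% in either, and DESeq2 called 32 genes in mKO and 2 in pKO.

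Of the 22 members lower in the libraries labelled KO, 15 were among the 33 that later reached their MII level in the window experiment, 5 among the 38 at 50% to 100%, 2 among the 67 at 10% to 50% and 0 among the 12 under 10%. The median log2 fold change in these classes was -0.95, -0.17, 0.03 and 0.25. The same split was not made for the other maternal genes or for all genes, so it is not shown to be particular to the members. Other measures moved with the same libraries. The oocyte list summed to 3666 to 4341 CPM in the libraries labelled KO, against 2229 to 2979 CPM in ctrl, with all 12 genes detected in both. Mitochondrially encoded transcripts took 5.93% to 11.4% of counts, against 3.23% to 4.18% in ctrl, and library totals were 14080264 to 15631152 counts, against 17858094 to 19876670 in ctrl. Their part in the result was not tested.

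Dnttip2, a nucleolar protein, had 111, 95.9 and 125 CPM in the libraries labelled KO, against 337, 355 and 308 CPM in ctrl (a log2 change of -1.60 with an SE of 0.29, adjusted p = 0.00773), with 151, 250.1 and 152 CPM in mKO and 249 and 409 CPM in pKO. Tor2a had 31.3, 36.0 and 46.7 CPM, against 148, 158 and 189.6 CPM in ctrl (a log2 change of -2.14 with an SE of 0.39, adjusted p = 0.00819). Eif3c had 79.6, 77.8 and 125 CPM, against 207, 242 and 209 CPM in ctrl (a log2 change of -1.24 with an SE of 0.28, adjusted p = 0.0162). In these 3 genes the libraries labelled KO did not overlap with ctrl. All 3 lost the call when KO replicate 2 was left out, with adjusted p of 0.0648 for Dnttip2, 0.0639 for Tor2a and 0.092 for Eif3c. Eif3c also lost it without KO replicate 1, ctrl replicate 2 or ctrl replicate 3 (adjusted p = 0.0667, 0.0741 and 0.0607). Of the 6 ribosome biogenesis members, Gnl2, Rbm28, Lyar and Nop58 were lower, as were 61 of the list's 125 tested genes, with 0 higher. Over all genes tested, 6.31% were lower and 1.82% higher.

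The 4 members called higher were Fgfr2, Ctbs, Slc30a4 and Nfkbiz. Fgfr2 had 21.2, 41.2 and 29.0 CPM in the libraries labelled KO, against 10.2, 11.3 and 11.3 CPM in ctrl (a log2 change of 1.47 with an SE of 0.37, adjusted p = 0.0251). Ctbs, a lysosomal chitobiase, had 14.3, 36.2 and 16.4 CPM, against 8.40, 6.60 and 5.94 CPM (a log2 change of 1.68 with an SE of 0.45, adjusted p = 0.033). In both genes every library labelled KO lay above every ctrl library. Slc30a4, the zinc transporter ZnT4, had 14.0, 34.1 and 37.2 CPM, against 11.6, 7.66 and 4.43 CPM (a log2 change of 1.81 with an SE of 0.50, adjusted p = 0.0349). Nfkbiz had 1.54, 14.4 and 15.0 CPM, against 0.896, 1.76 and 1.76 CPM (a log2 change of 2.76 with an SE of 0.81, adjusted p = 0.0439), and its KO range overlaps with ctrl. Each of these 4 calls was lost in 4 or 5 of the 6 fits that leave out 1 library.

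**Figure D5:**
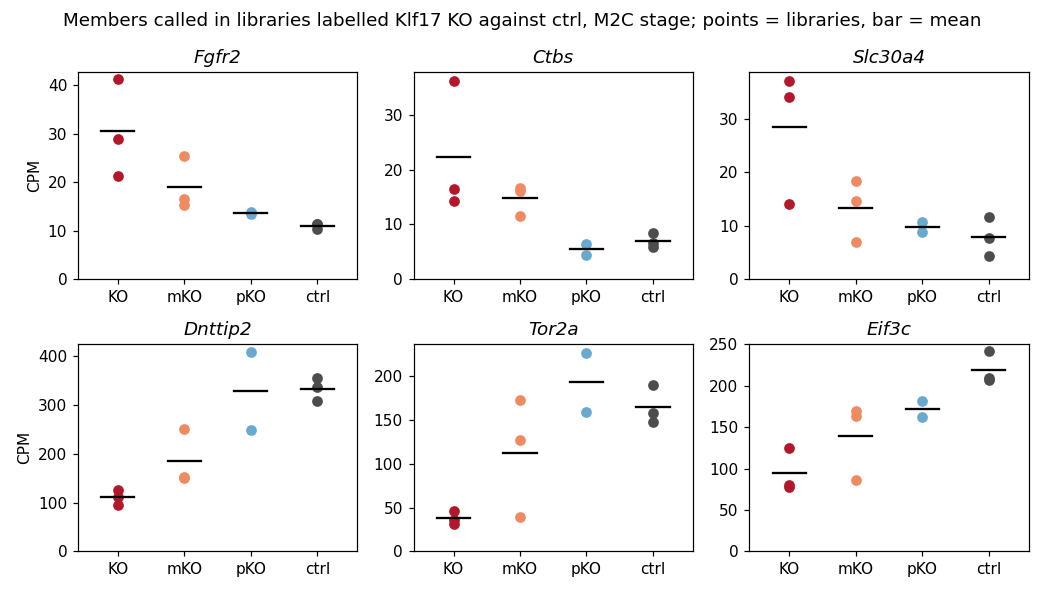
CPM by library (points) and mean (bar) in libraries labelled Klf17 KO, mKO and pKO and in ctrl, for 3 of the 4 members called higher (top row) and 3 of the 22 called lower (bottom row) in the libraries labelled KO. The KO points lie above all ctrl points in the top row and below them in the bottom row.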

How the data were processed

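Gene counts were deposited by the authors, per the file headers, as whole numbers per gene and library without normalization. The deposited 90-96hpi replicate 3 column was handled like estimated counts (expected counts) and rounded, since 1 damaged record in it holds a fraction. That record was left out, and all other values are whole. STAR 2.7.10a, SAMtools 1.12 and Trim Galore 0.6.10, with the build mm10 (GRCm38), are listed in the submitters' processing notes. The counting tool, the strand counted and any use of T-to-C conversions are not given in the sources used here. Accessibility (14 samples) and embryo-number (6 samples) data were not used here, nor was the authors' deposited gene length column in any test.

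CPM is count × 1000000 / library total. Columns were matched to samples by title. Each experiment (30 and 11 libraries) went into 1 model in R 4.3.3 with edgeR 4.0.16: genes kept by filterByExpr (minimum count 10, minimum total 15), TMM factors, robust quasi-likelihood F-test, two-sided, Benjamini-Hochberg adjusted over all genes tested, called below 0.05 with no fold minimum. An SE was taken as the log2 fold change over the root of its F value. Printed levels use library totals, while fold changes are TMM-scaled. The fits were also run on simulated counts with the same spread for every gene, a check of the code that does not bear on the calls. The labels do not say whether replicates came from separate cultures or animals, and a p-value then speaks to the spread among libraries alone, which may be technical. No 2 libraries were alike within sampling noise.

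The members and the gene lists were chosen with earlier results of these data known. Genes were named by rule: the lowest scores, the genes at the limit, the lowest fold changes without overlap in both early comparisons, the highest in each later window (without overlap, mean of at least 20 CPM), the 6 largest and 6 smallest returns, up to 4 calls per direction by adjusted p in each genotype, and list members. Exceptions are marked. Results for some genes named by these rules are left out. Alternatives were DESeq2 1.42.0, its size factors, total count scaling, no filter, only the 2 groups compared, a replicate block, a log2 fold minimum of 1, other forms of the rule (pseudocount 5, MII minimum 20 CPM, TMM-scaled CPM) and leaving out each library in turn.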

Additional observations from a re-analysis of the deposited data

How the results depend on the processing

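The window results held their direction under all alternatives run. Members lower at 6-12hpi than at 0-6hpi numbered 102 to 108 without 1 library, 117 with DESeq2, 140 in a fit of only those 2 groups and 79 with a log2 fold minimum of 1, in place of 112. Members higher than at 18-24hpi numbered 51 to 63 at 24-30hpi and 69 to 83 at 30-36hpi without 1 library; total count scaling gave 80 and 88, and the cause was not tested. Members with their largest fall between MII oocytes and 0-6hpi numbered 16 on TMM-scaled CPM, in place of 10. With other forms of the rule, 146 of the 150 genes stayed members at a pseudocount of 5, 134 on TMM-scaled CPM, 112 with a MII minimum of 20 CPM and 143 to 145 without 1 library.

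The genotype counts were the least stable. Members lower in the libraries labelled KO than in ctrl numbered 22, but 36 in a fit of only those 2 groups, 30 with DESeq2, 29 without the filter on low counts, 14 with DESeq2's size factors and 0 to 14 without 1 library. Members higher there numbered 4, but 7 without the filter, 8 in a fit of only the 2 groups and 0 to 3 without 1 library. Members lower in mKO than in ctrl numbered 0, but 1 without the filter and 0 to 3 without 1 library. Fits with fewer samples estimate the spread from fewer libraries, and the cause of the other shifts was not tested. Of 480 alternative values for 40 results on single named genes, 26 lost the call, all in KO against ctrl without 1 library, and 0 turned direction.

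Groups share replicate numbers in the labels. Deviations from the group means of same-numbered libraries had a median correlation of 0.0043 in the windows (-0.0838 to 0.1861) and 0.0925 in the genotypes (-0.0523 to 0.3561). Since some pairs were negative in both and the labels name no shared litter or day, the numbers were not taken to pair the libraries. Of the libraries, 10 of 30 and 7 of 11 correlated best with their own number, which is a hint from the data for the genotypes, not the design. With a replicate block, 111 members were lower at 6-12hpi than at 0-6hpi, 118 lower at 18-24hpi than at 6-12hpi, 33 lower and 5 higher in KO than in ctrl, and 54 to 78 higher in the later windows. Depth limits members that fell to a few CPM, such as Mos after 30-36hpi, where a level rests on a few counts per library.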
